A study of Homo sapiens with 11 samples.

Results

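A set of 10 genes of iron handling and of the acute-phase response were followed in MDA-MB-468 cells exposed to tumour necrosis factor (TNF), to apigenin, to both or to neither. They were chosen by name: TF, TFRC, CP, LTF, LCN2, SLC40A1, STEAP4, SAA1, SAA2 and CHI3L2. A gene was measured through a probe set (a group of array probes for 1 transcript region) whose annotation gives that symbol and no other, which held for 9 of these genes, out of 22395 genes measured in this way. SAA2 was listed only on a probe set shared with SAA4 and was left without a value. Each of the 9 had 1 such probe set, so the mean over the 11 arrays, which would have chosen between several, decided nothing. The names were proposed with results of these data known. The p-values below therefore place each gene in a fit of the whole table and are not independent evidence for the choice.

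All groups are of 1 established human cell line, MDA-MB-468, grown from the pleural effusion of a breast cancer that lacked the hormone receptors and HER2 amplification. Groups were control (no treatment, n = 3 arrays), TNF at 40 ng/ml (n = 3), apigenin at 40 µM (n = 2) and TNF at 40 ng/ml plus apigenin at 40 µM (n = 3), each for 24 h, with agents prepared in HBSS. TNF is an inflammatory cytokine and apigenin a plant flavone. Total RNA was hybridised to arrays of messenger and long non-coding RNA. The labels do not say whether replicates were separate cultures, so p-values measure only the spread between these arrays.

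In iron handling, transferrin (TF) carries ferric iron in plasma, and transferrin receptor 1 (TFRC) takes it into endosomes, where metalloreductases of the STEAP family reduce it. Ferroportin (SLC40A1) exports ferrous iron, which the copper protein ceruloplasmin (CP) oxidises for loading onto transferrin. Lactoferrin (LTF) and lipocalin 2 (LCN2) withhold iron from microbes in milk and at mucosal surfaces. Serum amyloid A (SAA1, SAA2) is an acute-phase protein made in large amounts during inflammation, and CHI3L2 is a secreted chitinase-like protein without chitinase activity.

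The genes parted into 3 patterns. SAA1 and CHI3L2 were higher with TNF and lower again when apigenin was added. CP and STEAP4 were lowest with apigenin alone and also lower when it was added to TNF. TF was lower with either agent and with both, in comparisons that share the same 3 control arrays. TFRC, LCN2 and LTF did not pass the test in any comparison, and SLC40A1 lay below the median of the array on all 11 arrays and was not tested. That median, 2.53 on the log2 scale, is taken as the level of background, and testing a gene required values at or above it on 2 or more arrays. LTF met this limit with 2 arrays, and SLC40A1, with a highest value of 2.40, had 0.

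**Figure D1:**
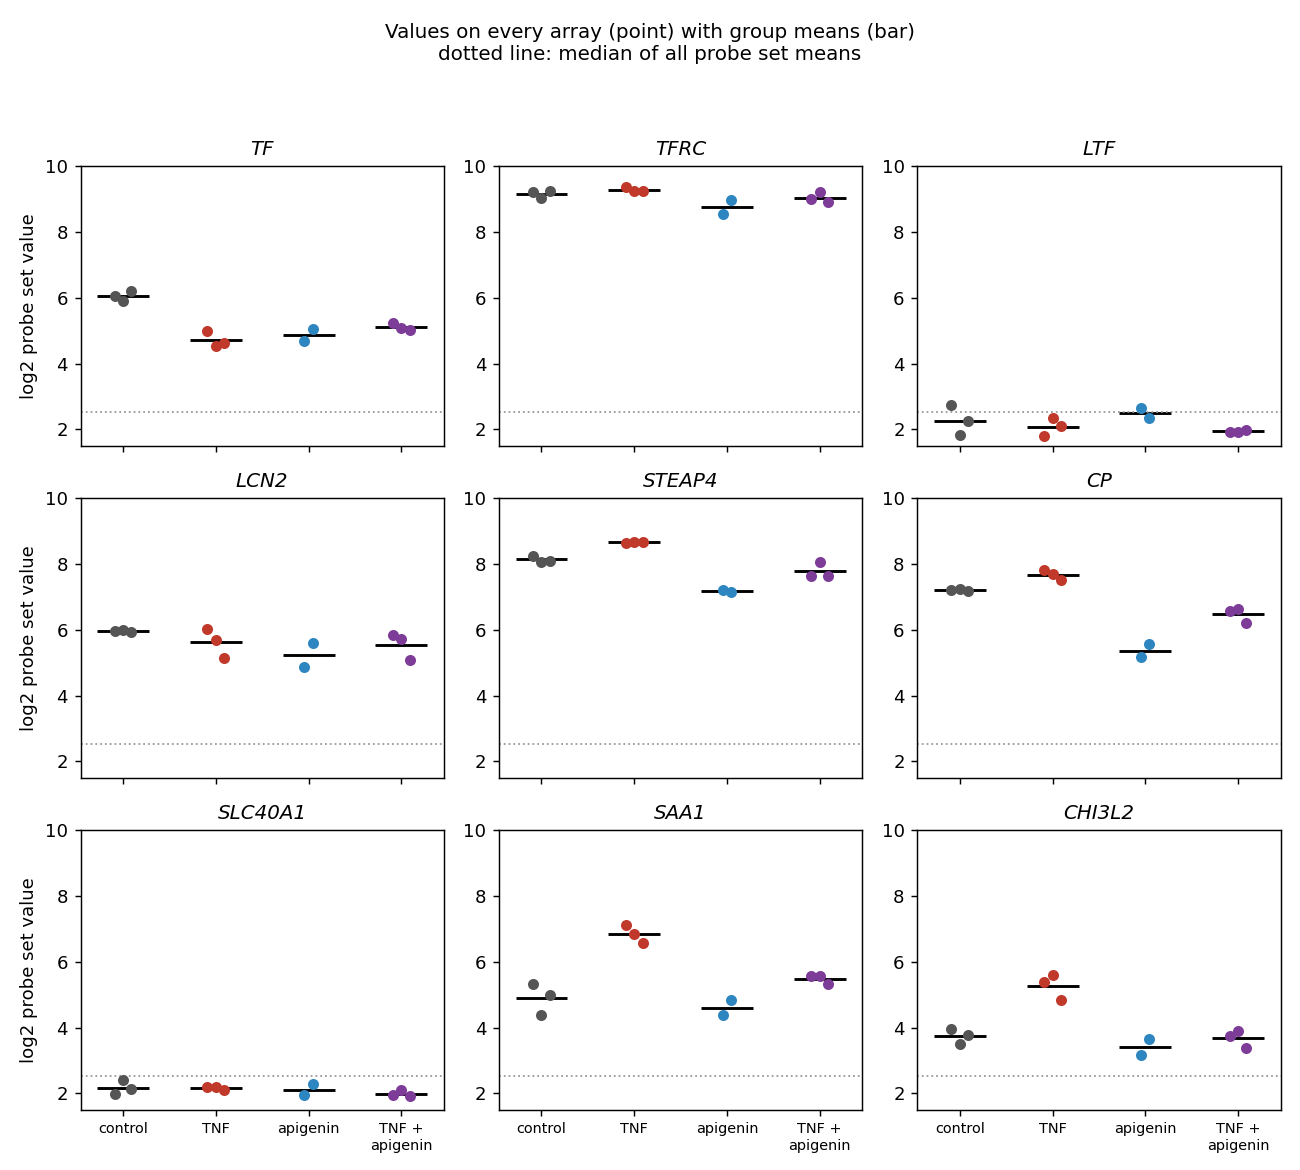
Log2 probe set value (vertical axis) of the 9 measured genes on every array (points) in the 4 groups (horizontal axis), with group means (bars) and the median of all probe set means (dotted line, 2.53). SAA1 and CHI3L2 stand highest on the 3 TNF arrays, CP and STEAP4 lowest on the 2 apigenin arrays and TF highest on the 3 control arrays; LTF and SLC40A1 lie near the dotted line.

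Array quality and identity bear on all of these values. Correlations between arrays of a group over the 15865 genes tested lay between 0.969 and 0.987. Array apigenin 1 stood apart, with a median of 3.89 and an interquartile range of 2.40 over these genes, against 4.08 to 4.32 and 2.63 to 2.91 on the other 10. Over all tested genes, the median difference was -0.177 in the comparison of apigenin with control and 0.162 in that of both agents with apigenin, and lay between -0.043 and 0.015 in the 3 other comparisons of groups. Of 10 breast epithelial genes 9 had a mean at or above background, and the list's array means lay between 6.94 and 7.11 in control, 6.69 and 6.97 with TNF, 6.50 and 6.70 with apigenin and 6.46 and 6.73 with both. Its members differed, EPCAM standing at 9.14, 9.28, 8.97 and 9.14 in these 4 groups and MUC1 at 7.80, 7.74, 5.85 and 6.09. From a list of genes reported absent or low in this line, group means of RB1, ESR1 and PGR stayed below background. The highest was 2.52, for ESR1 with both agents. SMAD4, of the same list, had means of 1.44, 2.22, 2.70 and 2.07, above background with apigenin. Lists of neutrophil, hepatocyte, T and B cell and fibroblast markers had array means between 2.19 and 2.55, with 3, 4, 3 and 3 members at or above background. The macrophage list (6 of 10) lay between 3.07 and 3.25 in control, 2.90 and 3.16 with TNF, 2.97 and 2.98 with apigenin and 2.87 and 3.04 with both. Its member CD14 had means of 6.47, 5.25, 4.41 and 4.50, highest in control as TF was. The endothelial list (4 of 7) lay between 2.61 and 2.69 in control, 2.68 and 2.98 with TNF, 2.28 and 2.34 with apigenin and 2.43 and 2.50 with both. Its array means were lower with apigenin, as CP and STEAP4 were. The part of the epithelial, macrophage and endothelial lists in the results was not tested.

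Promoter sequences are shown for the members that changed and are in the RefSeq promoter table, TF, STEAP4 and CHI3L2, and for LCN2, which did not pass the test. The table (GRCh38.p14) matched 7 of the 10 genes; CP, SAA1 and SAA2 are named only. Each line gives the 250 bases before a transcription start, 5′ to 3′ on the gene's strand. Capitals mark letters that match the letters of 3 motifs on either strand: GGG and CC with any 5 bases between them (NF-kB), TTNNGNAA (C/EBP) or TTCNNNGAA (STAT).
TF, chr3:133746143-133746392, + strand: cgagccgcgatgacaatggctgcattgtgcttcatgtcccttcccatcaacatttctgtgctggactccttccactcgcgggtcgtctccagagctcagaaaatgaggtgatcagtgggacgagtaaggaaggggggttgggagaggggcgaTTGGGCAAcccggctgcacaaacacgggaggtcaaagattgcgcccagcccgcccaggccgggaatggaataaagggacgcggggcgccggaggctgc
STEAP4, chr7:88306895-88307144, - strand: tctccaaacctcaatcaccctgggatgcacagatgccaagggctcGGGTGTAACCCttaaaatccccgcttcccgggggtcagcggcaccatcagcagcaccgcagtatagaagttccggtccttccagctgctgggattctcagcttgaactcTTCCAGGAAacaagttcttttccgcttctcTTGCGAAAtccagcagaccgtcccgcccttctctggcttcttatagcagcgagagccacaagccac
CHI3L2, chr1:111227409-111227658, + strand: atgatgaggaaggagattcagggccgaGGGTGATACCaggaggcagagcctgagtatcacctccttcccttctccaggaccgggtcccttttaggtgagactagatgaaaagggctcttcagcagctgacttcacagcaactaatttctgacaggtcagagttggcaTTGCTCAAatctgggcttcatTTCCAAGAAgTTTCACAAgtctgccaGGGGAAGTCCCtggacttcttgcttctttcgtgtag
LCN2, chr9:128149203-128149452, + strand: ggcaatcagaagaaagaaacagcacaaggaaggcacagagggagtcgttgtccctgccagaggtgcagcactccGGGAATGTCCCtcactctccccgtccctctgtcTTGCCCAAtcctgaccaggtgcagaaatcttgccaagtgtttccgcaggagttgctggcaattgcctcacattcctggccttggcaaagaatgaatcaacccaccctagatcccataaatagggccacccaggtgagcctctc
The CHI3L2 window held GGGAAGTCCC, which matches the NF-kB letters on both strands, 35 to 26 bases before the start, overlapped by a further match shifted by 1 base, and TTCCAAGAA 62 to 54 bases before it. It also held GGGTGATACC at 223 to 214, and TTGCTCAA at 83 to 76 and TTTCACAA at 52 to 45 on the opposite strand; its second start in the table lies further downstream and has a window that shares all of these but GGGTGATACC. LCN2 held GGGAATGTCC 176 to 167 bases before its start, overlapped by a match on the opposite strand, and TTGCCCAA at 143 to 136. STEAP4 held GGGTGTAACC at 205 to 196, also with an opposite-strand overlap, TTCCAGGAA at 96 to 88 and TTGCGAAA at 66 to 59. The TF window shown held TTGGGCAA at 98 to 91 and no match to the other letters; the window of a second TF start in the table held 1 match, GGCGCCGCCC to the NF-kB letters on the opposite strand, 121 to 112 bases before that start. Of 35116 windows of this length, 54.4% held the NF-kB letters, 33.2% the C/EBP letters and 6.6% the STAT letters. A match describes letters only.

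SAA1 and CHI3L2 rose with TNF and TF fell. In all, 3 of 8 tested members were called for TNF against control (2 higher, 1 lower; limma, adjusted p under 0.05 over all genes), against 0.700% of all genes (0.473% higher, 0.227% lower). The median change of the 8 was 0.288, against -0.043 for all genes. Groups of arrays did not overlap for 5 of the 8 (these 3, CP and STEAP4), as for 13.3% of all genes.

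SAA1, the serum amyloid gene, read 5.32, 4.39 and 4.98 on the log2 scale on the control arrays and 7.11, 6.86 and 6.58 with TNF. Every TNF array was above every control array. The mean went from 4.90 ± 0.47 (SD, n = 3) to 6.85 ± 0.26, a rise of 1.95 ± 0.23 (moderated standard error, SE) or 3.87-fold (limma adjusted p = 0.000336). SAA1 and SAA2 are near-identical neighbours in sequence, so the SAA1 probe set may also take up SAA2 transcripts, and the share is unknown.

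CHI3L2 read 3.95, 3.50 and 3.77 in control and 5.37, 5.60 and 4.82 with TNF. The 3 TNF arrays lay above all others in the series, TNF 3 being the lowest of them. The rise of the mean, 3.74 ± 0.23 in control and 5.26 ± 0.40 with TNF, was 1.52 ± 0.23, which is 2.87-fold (limma adjusted p = 0.00298). Of the 6 tested genes of the chitinase family (glycoside hydrolase family 18) CHI3L2 was the 1 called, beside 0.700% of all genes. It was itself chosen with results of these data known.

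TF read 6.05, 5.89 and 6.19 in control and 4.97, 4.53 and 4.62 with TNF. No TNF array came near the lowest control array. The mean fell by 1.33 (SE 0.18) or 2.52-fold, from 6.04 ± 0.15 to 4.71 ± 0.24 (adjusted p = 0.00114). In plasma TF is a negative acute-phase protein, one that falls in inflammation.

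CP and STEAP4 were higher on the TNF arrays without passing the test. STEAP4, a ferric and cupric reductase, read 8.25, 8.07 and 8.08 in control and 8.62, 8.67 and 8.67 with TNF, a difference of 0.52 (95% interval 0.17 to 0.88, adjusted p = 0.31). CP read 7.20, 7.25 and 7.19 in control and 7.80, 7.68 and 7.52 with TNF, a difference of 0.46 (95% interval 0.08 to 0.83, adjusted p = 0.489). For both genes the TNF arrays lay above all control arrays.

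TFRC, LCN2 and LTF did not pass with TNF. TFRC, the receptor for iron-loaded transferrin, read 9.20, 9.02 and 9.25 in control and 9.36, 9.23 and 9.24 with TNF, and the interval of its difference ran from -0.24 to 0.49. LCN2, which binds bacterial siderophores, read 5.95, 5.99 and 5.94 in control and 6.02, 5.68 and 5.15 with TNF. Array TNF 3 was the low one, and the interval of the difference ran from -0.89 to 0.20. LTF lay between 1.80 and 2.73 in these groups, near background, with an interval of -0.66 to 0.28.

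**Figure D2:**
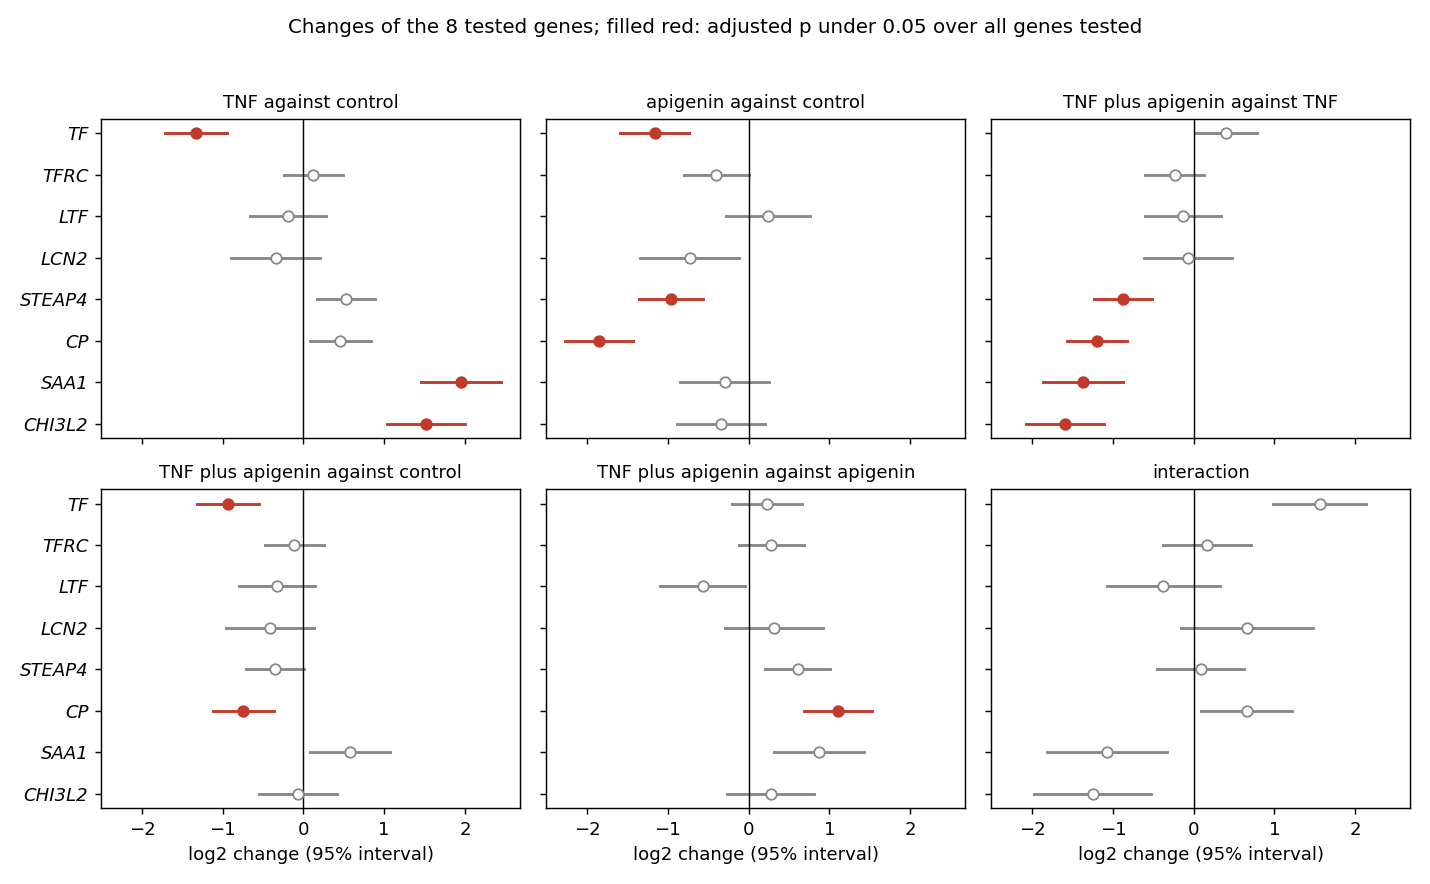
Log2 change (points) with its 95% interval (lines) for the 8 tested genes in 6 comparisons, filled red where the adjusted p over all genes is under 0.05. Each single agent against control has 3 red points; the combination has 4 against TNF, 2 against control and 1 against apigenin, and the interaction has 0.

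CP, TF and STEAP4 fell with apigenin alone. These 3 of 8 were called lower for apigenin against control and 0 higher, against 3.66% of all genes called (3.44% lower, 0.221% higher). The median of the 8 was -0.563, against -0.177 over all genes. Arrays of the 2 groups did not overlap for 5 of the 8 (these 3, LCN2 and TFRC), as for 31.5% of all genes.

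CP, the plasma ferroxidase, read 5.17 and 5.55 on the 2 apigenin arrays, where control lay between 7.19 and 7.25. Both were below every array of the other 3 groups. The mean fell by 1.85 (SE 0.20) or 3.61-fold, from 7.21 ± 0.03 (n = 3) to 5.36 ± 0.27 (n = 2), with a limma adjusted p of 0.000355. Relative to the median of all genes the change was -1.68.

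TF read 4.70 and 5.06 with apigenin, below the lowest control value of 5.89. It fell by 1.16 (SE 0.20) or 2.24-fold (adjusted p = 0.00637). Without apigenin 1, which leaves 1 apigenin array assumed to vary like the other groups, the call was lost (-0.98, adjusted p = 0.0924), as it was with only the 2 groups in the fit (adjusted p = 0.0565).

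STEAP4 read 7.21 and 7.13 with apigenin, below all 9 other arrays. It fell by 0.96 (SE 0.19) or 1.95-fold (adjusted p = 0.0125). The call was lost without control 1 (-0.90, adjusted p = 0.062), without apigenin 1 (-1.0, adjusted p = 0.0751), in the quantile-normalized values (-0.66, adjusted p = 0.0781), in a fit that weights arrays (adjusted p = 0.0592) and with only the 2 groups (adjusted p = 0.0707).

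The other members did not pass with apigenin alone. SAA1 read 4.37 and 4.83 and CHI3L2 3.16 and 3.64, both overlapping control, with intervals of -0.85 to 0.26 and -0.88 to 0.20. LCN2 read 4.85 and 5.61, both below control, and differed by -0.73 (95% interval -1.34 to -0.12, adjusted p = 0.173). TFRC read 8.54 and 8.97, with an interval of -0.80 to 0.01. The lower value of LCN2 and of TFRC was that of apigenin 1, the array with the lowest median. LTF read 2.66 and 2.36.

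Adding apigenin to TNF lowered CHI3L2, SAA1, CP and STEAP4. For TNF plus apigenin against TNF these 4 of 8 were called lower and 0 higher, against 1.07% of all genes (0.681% lower, 0.384% higher). Their median with the other 4 was -0.557, against 0.015 over all genes. Groups did not overlap for 6 of the 8, TF and TFRC being the other two, as for 15.7% of all genes. The comparison shares its TNF arrays with that of TNF against control, so a gene read high on those arrays tends to look raised in 1 and lowered in the other.

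CHI3L2 read 3.74, 3.89 and 3.38 on the arrays of TNF plus apigenin, within the range seen without TNF. It fell by 1.59 (SE 0.23) or 3.01-fold from TNF alone (limma adjusted p = 0.00291). SAA1 read 5.56, 5.56 and 5.31, below all TNF arrays, and fell by 1.37 (SE 0.23) or 2.59-fold (limma adjusted p = 0.00828). CP read 6.56, 6.64 and 6.21 and fell by 1.20 (SE 0.18) or 2.30-fold (limma adjusted p = 0.00336). All CP values with both agents lay between those of apigenin and those of control.

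STEAP4 read 7.64, 8.07 and 7.63 with both agents, and fell by 0.88 (SE 0.17) or 1.84-fold (adjusted p = 0.0181). Of the 6 fits with an array of either group left out, 5 lost this call. These were the fits without TNF 1 (-0.89, adjusted p = 0.0635), TNF 2 (-0.87, adjusted p = 0.0831), TNF 3 (-0.87, adjusted p = 0.0634), TNF plus apigenin 1 (-0.81, adjusted p = 0.0879) and TNF plus apigenin 3 (-0.80, adjusted p = 0.0735). With only the 2 groups it was also lost (adjusted p = 0.051).

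TF moved the other way without passing. It read 5.24, 5.08 and 5.01 with both agents, above all 3 TNF arrays, a difference of 0.40 (95% interval 0.02 to 0.79, adjusted p = 0.42). TFRC read 9.01, 9.20 and 8.90 (interval of the difference -0.60 to 0.13). LCN2 read 5.84, 5.71 and 5.09, spread as widely as with TNF alone (interval -0.62 to 0.48). Its low array, TNF plus apigenin 3, also had the lowest median after apigenin 1. LTF read 1.91, 1.93 and 1.98, below background on all 3.

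Against untreated cells, the combination left TF and CP lower. For TNF plus apigenin against control 2 of 8 were called lower and 0 higher, against 2.82% of all genes (1.78% lower, 1.04% higher), and groups did not overlap for 3 of 8 (LCN2 as well), as for 20.1% of all genes. The 3 comparisons with control share its arrays, so a gene read high on them tends to look lowered in each. TF fell by 0.93 (SE 0.18) or 1.91-fold (limma adjusted p = 0.0107). Its call was lost without control 3 (-0.86, adjusted p = 0.0547) and without TNF plus apigenin 2 (-0.92, adjusted p = 0.054). CP fell by 0.74 (SE 0.18) or 1.67-fold (adjusted p = 0.0352), a call that none of the 6 fits with an array left out kept, with changes between -0.83 and -0.62. The adjusted p was 0.113, 0.0879 and 0.0919 without control 1, 2 and 3, and 0.0666, 0.0656 and 0.129 without TNF plus apigenin 1, 2 and 3. SAA1 was 0.58 above control (95% interval 0.08 to 1.07, adjusted p = 0.233), with control 1 inside the range of the treated arrays. CHI3L2 differed by -0.07 (95% interval -0.55 to 0.41), STEAP4 by -0.35 (95% interval -0.71 to 0.004), LCN2 by -0.41, LTF by -0.33 and TFRC by -0.12.

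In cells given apigenin, TNF raised CP. For TNF plus apigenin against apigenin 1 of 8 was called higher and 0 lower, against 0.574% of all genes (0.529% higher, 0.0441% lower), and groups did not overlap for 4 of 8 (CP, SAA1, STEAP4 and LTF), as for 25.7%. CP rose by 1.11 ± 0.20 or 2.16-fold (adjusted p = 0.0179). Without apigenin 1 it was at 0.92 (adjusted p = 0.218), without TNF plus apigenin 1 at 1.07 (adjusted p = 0.0863) and without TNF plus apigenin 2 at 1.03 (adjusted p = 0.125). The call was also lost with array weights (1.18, adjusted p = 0.0524) and with only the 2 groups (adjusted p = 0.171). SAA1 was higher by 0.87 (95% interval 0.32 to 1.43, adjusted p = 0.142) and STEAP4 by 0.61 (95% interval 0.21 to 1.01, adjusted p = 0.151), both on every array and neither past the test. CHI3L2 differed by 0.27 (95% interval -0.27 to 0.81), TF by 0.23 (95% interval -0.20 to 0.66), LCN2 by 0.31 and TFRC by 0.28. LTF was below background on all 3 arrays with both agents and on 1 of the 2 with apigenin, so its lack of overlap and its difference of -0.57 are read at background.

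Whether the TNF response differed with and without apigenin was tested as the interaction, the TNF effect with apigenin minus that without it. Limma called 0 of the 8 members, and 0.0252% of all genes (0.0126% in each direction). At an unadjusted p under 0.05 these counts were 4 of 8 and 1294 of 15865. For TF the interaction was 1.56 (SE 0.27, adjusted p = 0.0779): TNF lowered it without apigenin, and the difference with apigenin was 0.23. CHI3L2 had -1.25 (SE 0.34, adjusted p = 0.433), SAA1 -1.08 (SE 0.35, adjusted p = 0.507) and CP 0.65 (SE 0.26, adjusted p = 0.58), where the median of all genes was 0.226. STEAP4, at 0.09, had an interval of -0.45 to 0.62.

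**Figure D3:**
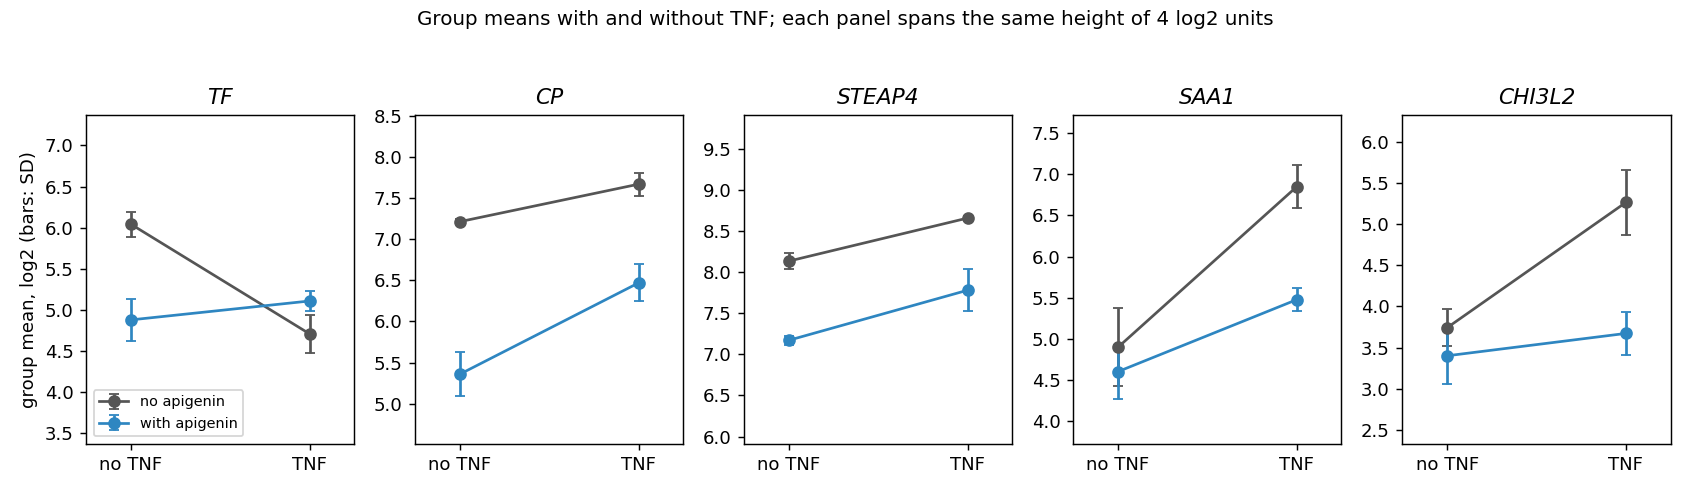
Group mean log2 value with its SD (vertical axis) without and with TNF (horizontal axis), in cells without (grey) and with (blue) apigenin, for the 5 genes called in any comparison. The lines of STEAP4 run nearly parallel, those of SAA1 and CHI3L2 are steeper without apigenin, and those of TF cross; none of these interactions passed the test.

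The order of the 4 groups differed between genes. For CP it was TNF (7.67), control (7.21), TNF plus apigenin (6.47) and apigenin (5.36), and no neighbours overlapped, although the step from TNF to control did not pass the test. STEAP4 had the same order at 8.66, 8.13, 7.78 and 7.17, with control and TNF plus apigenin meeting at 8.07. For SAA1 it was TNF (6.85), TNF plus apigenin (5.48), control (4.90) and apigenin (4.60), the last 3 overlapping between control and each neighbour. CHI3L2 stood at 5.26 with TNF, and its other 3 groups, from 3.74 to 3.40, overlapped. TF was highest in control (6.04) and did not part apigenin (4.88) from TNF plus apigenin (5.11) or from TNF (4.71). TFRC means ran from 8.76 to 9.28, LCN2 from 5.23 to 5.96, LTF from 1.94 to 2.51 and SLC40A1 from 1.99 to 2.17. SLC40A1, the ferroportin gene, had values between 1.91 and 2.40 over all 11 arrays.

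Among genes of iron uptake and transport, STEAP3 was the only gene called besides members. Of 17 tested, TF was called lower with TNF (1 of 17, beside 0.227% of all genes). With apigenin TF, STEAP4 and STEAP3 were called lower (3 of 17, beside 3.44% of all genes). TF and STEAP4 are among the 10 genes chosen with results known. With TNF plus apigenin, STEAP4 was lower against TNF, and TF and STEAP3 were lower against control. These were 1 and 2 of 17, beside 0.681% and 1.78% of all genes. STEAP3, the main endosomal ferrireductase of red cell precursors, fell by 0.96 (SE 0.21, adjusted p = 0.0225) with apigenin and by 1.17 (SE 0.19, adjusted p = 0.00334) with both. The first call was lost without control 1 (-0.89), control 3 (-0.99), apigenin 1 (-1.01) or apigenin 2 (-0.91). It was also lost after quantile normalization (-0.63, limma adjusted p = 0.0786), with array weights and with only the 2 groups. List medians were -0.105 for TNF, -0.207 for apigenin and -0.137 for the combination against TNF, beside -0.043, -0.177 and 0.015 for all genes.

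Among 17 genes of iron export, storage and their control, 1 was called lower with apigenin, beside 3.44% of all genes. This was CP, a gene chosen with results known. With TNF 0 were called, beside 0.700% of all genes. BMP2, a bone morphogenetic protein, was 0.78 above control with TNF at an adjusted p of 0.05002, just outside the threshold. HMOX1, the haem-degrading enzyme haem oxygenase 1, rose by 0.85 ± 0.18 when apigenin was added to TNF (adjusted p = 0.0278), from 4.65 to 5.50. That call was lost without TNF 1 (0.84) or 2 (0.78) or TNF plus apigenin 1 (0.70), 2 (0.92) or 3 (0.93). It was also lost with only the 2 groups. With apigenin added to TNF, 1 of 17 was called higher (HMOX1) and 1 lower (CP), beside 0.384% and 0.681% of all genes. List medians were -0.064 for TNF, -0.226 for apigenin and -0.049 for the combination against TNF, beside -0.043, -0.177 and 0.015 for all genes. Of 23 genes of haem and iron-sulphur cluster synthesis, limma called 0 in 5 comparisons, where 0.0252% to 2.82% of all genes were called. In the comparison of apigenin with control 2 were lower, beside 3.44% of all genes. These were FDX1, a mitochondrial ferredoxin, which fell by 0.89 (SE 0.21, adjusted p = 0.0287), and the cluster carrier gene NFU1, which fell by 0.87 (SE 0.20, adjusted p = 0.0258). FDX1 was lost without control 1 (-0.90), control 3 (-0.76) or apigenin 1 (-0.77). It was also lost after quantile normalization (-0.61), with array weights and with only the 2 groups. NFU1 was lost without control 1 (-0.79), control 3 (-0.78), apigenin 1 (-0.93) or apigenin 2 (-0.81). Its call was also lost with array weights, with only the 2 groups and after a shift to a common median over tested genes (-0.66). With TNF alone ALAS2, of haem synthesis, differed by -0.57 (adjusted p = 0.523).

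Among acute-phase plasma proteins, C3, CFB, LBP, SERPINA3 and PTX3 were called in some comparisons besides members. Of 19 tested, 3 rose with TNF (C3, CFB and SAA1) and 1 fell (TF), beside 0.473% and 0.227% of all genes. The list holds 5 of the 10 genes, which were chosen with results known and supply the calls of SAA1, TF and CP. This list and the others were chosen with earlier results known too, so their shares of calls are not independent evidence. C3, the central complement component, rose by 2.59 ± 0.19 (adjusted p = 2.38e-06) and CFB, complement factor B, by 1.95 ± 0.19 (adjusted p = 5.5e-05). Adding apigenin to TNF lowered C3, by 2.06 (SE 0.19, adjusted p = 8.63e-05), and CFB, by 1.49 (SE 0.19, adjusted p = 0.00115), besides SAA1 and CP, 4 of 19 in all, beside 0.681% of all genes. With apigenin alone 5 of 19 fell, beside 3.44% of all genes: CP, TF, the lipopolysaccharide-binding protein gene LBP by 1.26 (SE 0.22), the protease inhibitor gene SERPINA3 by 0.98 (SE 0.23) and CFB by 0.86 (SE 0.21). LBP lost its call without apigenin 1 (-1.10). SERPINA3 lost it without control 1 (-0.99), control 2 (-0.90), control 3 (-1.05) or apigenin 1 (-0.91), and CFB without control 1 (-0.71), control 3 (-0.91) or apigenin 1 (-0.67). SERPINA3 and CFB also lost theirs with array weights, with only the 2 groups and after the shift over tested genes (-0.77 and -0.64). After quantile normalization SERPINA3 was not called either (-0.80). List medians were 0.049, -0.230 and -0.136 for TNF, apigenin and the combination against TNF, beside -0.043, -0.177 and 0.015 for all genes.

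With both agents against control, PTX3, the long pentraxin gene, rose by 1.08 ± 0.20 (limma adjusted p = 0.00776). Its control mean, 2.09, was below background. TF, CP and LBP fell. In all 1 of 19 was called higher and 3 lower, beside 1.04% and 1.78% of all genes. LBP fell by 0.83 (SE 0.20) and lost its call without control 1 (-0.76), control 3 (-0.82), TNF plus apigenin 2 (-0.84) or TNF plus apigenin 3 (-0.66). With only the 2 groups the LBP call was also lost. Against apigenin alone C3 (1.19 ± 0.21), CFB (1.32 ± 0.21), PTX3 (1.20 ± 0.22) and CP rose, 4 of 19, beside 0.529% of all genes. The apigenin mean of PTX3, 1.96, was below background, as was that of control, so the size of its rise is not a measured fold. Without apigenin 1 they stood at 0.94, 1.13, 1.12 and 0.92, without calls. The calls were also lost for C3 (1.19) and PTX3 (1.17) without TNF plus apigenin 1, and for C3 (1.18), CFB (1.28) and PTX3 (1.07) without TNF plus apigenin 2. C3, CFB and PTX3 lost theirs with array weights and with only the 2 groups as well.

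Of 18 cytokine, receptor, signalling and transcription factor genes linked to the acute-phase response, limma called 0 for TNF or for apigenin alone against control. Of all genes 0.700% and 3.66% were called there, so a count of 0 does not set this list apart. The cytokine receptor chain gene IL6ST was 0.80 above control with TNF (adjusted p = 0.0598) and LIF, a cytokine that signals through it, 1.0 (adjusted p = 0.0675). The receptor gene IL1R1 differed by -0.69 with apigenin (adjusted p = 0.0695). LIF rose when apigenin was added to TNF, by 1.30 ± 0.23 (adjusted p = 0.0104), a call lost without TNF plus apigenin 1 (1.15, adjusted p = 0.0595). With both agents LIF was 2.30 ± 0.23 above control (limma adjusted p = 0.000113). In each of these 2 comparisons LIF was the 1 of 18 called, beside 0.384% and 1.04% of all genes called higher. Against apigenin LIF rose by 1.66 ± 0.25 and IL6ST by 1.12 ± 0.20, 2 of 18, beside 0.529% of all genes called higher. Those 2 calls were lost without apigenin 1 (1.24 and 0.93), and that of IL6ST also without TNF plus apigenin 1 (1.18) or 2 (0.99). Both were lost with only the 2 groups, and that of IL6ST with array weights. The list medians were 0.049 for TNF, -0.396 for apigenin and -0.026 for the combination against TNF, beside -0.043, -0.177 and 0.015 for all genes.

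**Figure D4:**
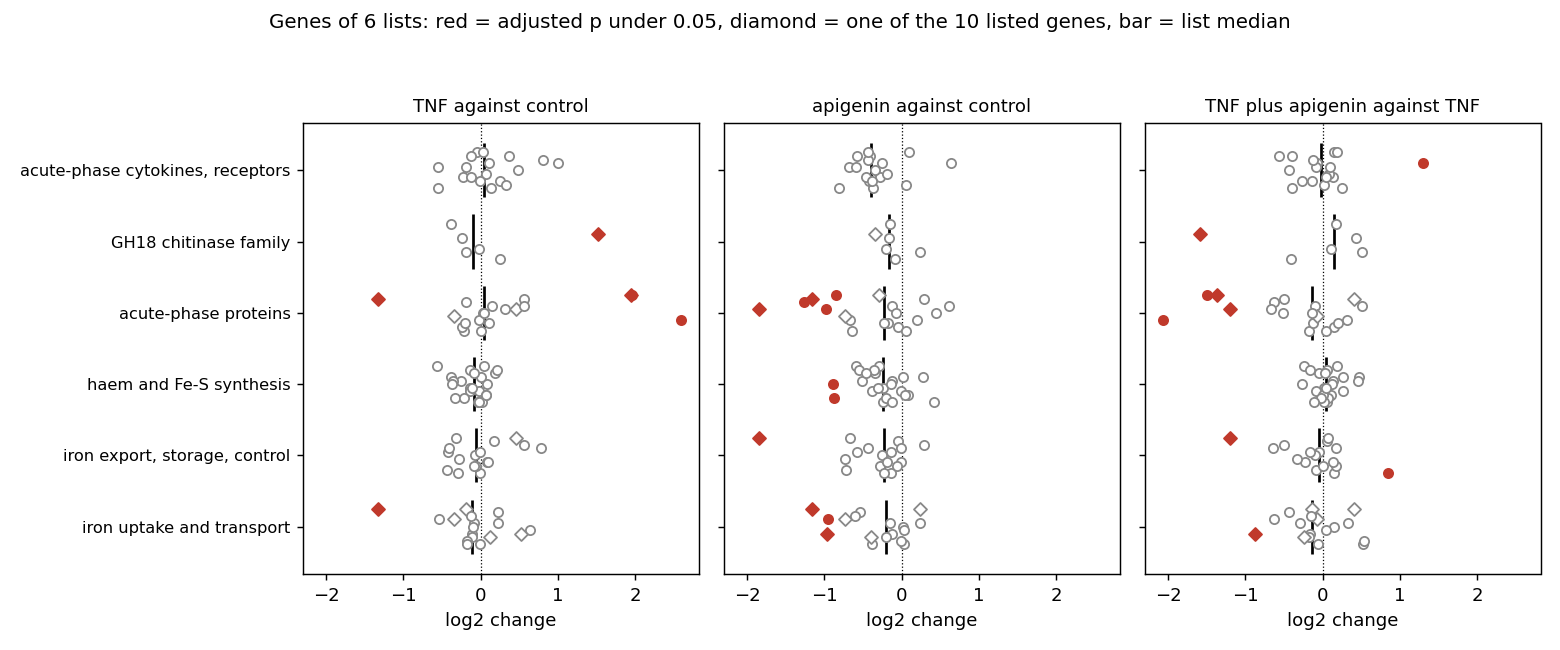
Log2 change (horizontal axis) of each tested gene of 6 lists (rows) in 3 comparisons, with list medians (bars); red marks an adjusted p under 0.05 over all genes and diamonds the listed members. Acute-phase proteins, a list with 5 of the 10 genes, hold the most red points in each panel. Of 19 tested these are 4 for TNF (SAA1 and CFB coincide at 1.95), 5 for apigenin and 4 for TNF plus apigenin against TNF. Shares of all genes called were 0.700%, 3.66% and 1.07%.

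The genes most like a member were taken for the 4 called members with the largest spread over the 11 arrays, by the root mean square difference of values after removing each gene's mean. For SAA1 (SD 0.94) they were CFB (0.25), the matrix gene TNC (0.27) and the semaphorin gene SEMA3C (0.28). For CP (SD 0.86) they were the nucleoside transporter gene SLC28A3 (0.19), the carboxypeptidase gene CPA4 (0.19) and PRKAR2B, a regulatory subunit of protein kinase A (0.19). SEMA3C (0.26), the collagen gene COL12A1 (0.31) and the collagenase gene MMP13 (0.31) were nearest to CHI3L2 (SD 0.81). MMP13 was above background only in the TNF mean (3.36) and at 1.72, 1.85 and 1.69 in control, apigenin and both, so its nearness rests partly on values below background. STAC2 (0.16), the selenium carrier gene SELENOP (0.23) and the sugar transporter gene SLC2A10 (0.25) were nearest to TF (SD 0.58). STAC2 had group means of 4.08 in control, 2.78 with TNF, 2.84 with apigenin and 3.06 with both, the order seen for TF.

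**Figure D5:**
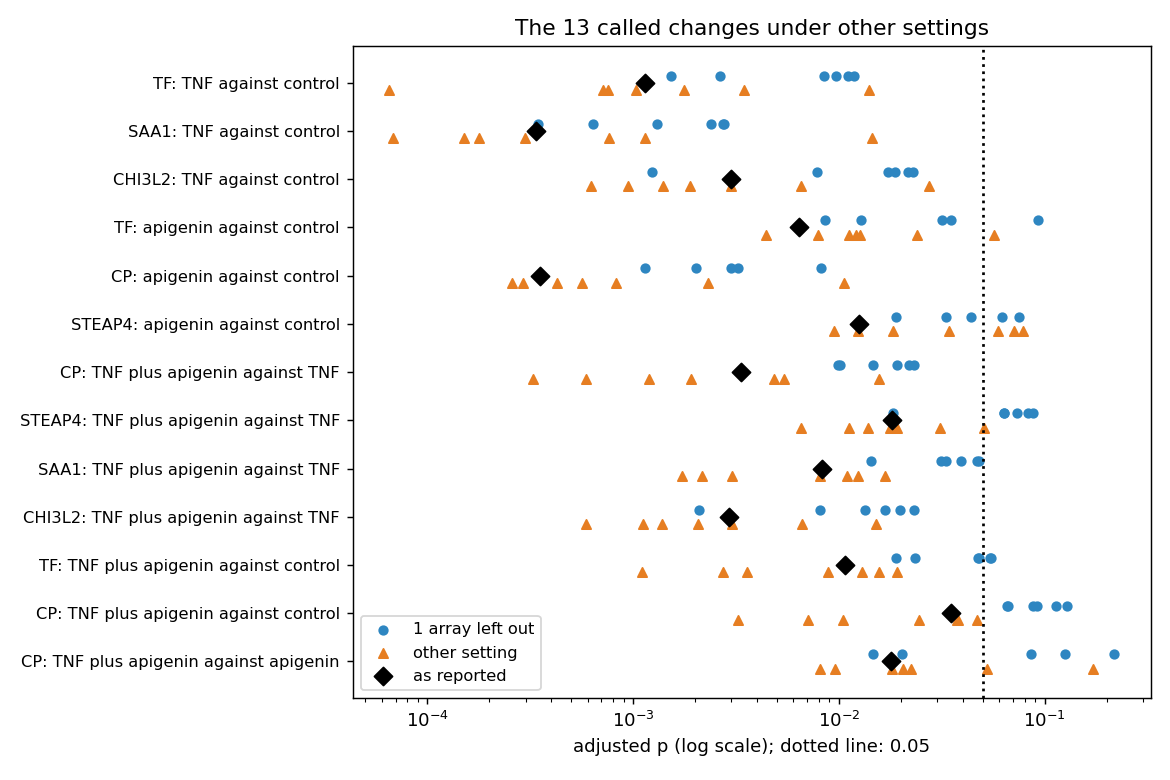
Adjusted p (log axis) of the 13 called changes of members as reported (diamonds), with 1 array left out (circles) and under other settings (triangles), against the threshold of 0.05 (dotted line). All points lie left of the line for 7 of the 13, among them TF, SAA1 and CHI3L2 with TNF and CP with apigenin.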

How the data were processed

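The values are the authors' deposited log2 probe set values of 11 arrays, made with Affymetrix Expression Console per the labels; the sources used here do not give its version, the summarisation or any normalization across arrays. The log2 base was inferred from the range, 0.38 to 12.31. Of 53617 probe sets, 23871 had 1 gene symbol, 1842 several and 27904 none; 22569 matched a RefSeq gene number, and symbols of 90 were updated. A gene with several probe sets took that with the highest mean. Genes with at least 2 arrays at or above the median of probe set means (2.53) were tested, 15865 in all.

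Group means over all 11 arrays were fitted together with limma 3.58.1 (R 4.3.3; lmFit, eBayes, 7 residual degrees of freedom), checked on simulated data. P-values are two-sided, Benjamini-Hochberg adjusted over all genes tested and called under 0.05. The number of arrays limits the precision. Alternatives were quantile normalization, median shifts, no filter, array weights, 2-group fits, a replicate block and leaving out arrays singly. Arrays were left out only from the groups compared, or from all groups for the interaction.

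Named were all members, the called genes of 6 lists or, with none called, up to 2 of lowest p, and the 3 genes most like each of 4 members. Members and lists were chosen with earlier results of these data known. The shift to a common median over tested genes was added after seeing the data.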

Additional observations from a re-analysis of the deposited data

Results flagged for a closer look

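TF was singled out because apigenin went with opposite differences without and with TNF, and the arrays of both comparisons did not overlap. It was lower with apigenin alone (4.70 and 5.06, against 5.89 to 6.19 in control) and higher when apigenin was added to TNF (5.01 to 5.24, against 4.53 to 4.97). Arrays did not overlap for 31.5% of all genes in the first of these comparisons and for 15.7% in the second. The first difference was called, though not in every alternative. The second, 0.40, was not called (limma adjusted p = 0.42). The difference between these effects is the interaction, 1.56 (SE 0.27; limma adjusted p = 0.0779, and 0.0503 to 0.375 over its alternatives), which did not pass the test.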

How the results depend on the processing

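Of the 13 calls of members, 7 held in all alternatives and 0 changed direction; of 35 uncalled results, 0 gained a call and 7 changed sign in an alternative. With all tested genes, calls for TNF against control were 186 after quantile normalization, 221 with array weights, 182 after a median shift over tested genes (added after seeing the data) and 60 to 69 with an array left out, against 111. For apigenin against control they were 207 with array weights, 103 with 2 groups and 84 to 1290 with an array left out, against 581 (94% lower, but 75.5% after quantile normalization and 70.7% after the shift over tested genes). For TNF plus apigenin they were 510, 391 and 452 against TNF, in the order given first, and 85 to 134 with an array left out (169 as reported). Against control they were 1233, 1197 and 998, and 206 to 336 (447 as reported). Against apigenin they were 32 with array weights, 16 with 2 groups, 180 after a median shift over all probe sets and 18 to 598 with an array left out (91 as reported, 7.7% lower, against 18.8% and 19.5% after quantile normalization and the shift over tested genes). Without apigenin 1, 84 and 18 were called in the comparisons with control and with TNF plus apigenin; without apigenin 2, 1290 and 598. The interaction had 7 after quantile normalization, 10 after the shift over tested genes and 0 to 7 with an array left out (4 as reported).

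Sign changes, all of uncalled results, were these. With an array left out LTF with TNF ranged from -0.42 to 0.036, LCN2 for TNF plus apigenin against TNF from -0.30 to 0.16 (0.099 with array weights) and against apigenin from -0.064 to 0.69, and CHI3L2 for TNF plus apigenin against control from -0.19 to 0.075. TF for TNF plus apigenin against apigenin was -0.017 after quantile normalization. The interaction of TFRC was -0.037 after quantile normalization, -0.097 after the shift over tested genes and -0.052 to 0.37 with an array left out; that of STEAP4 was -0.20, -0.17 and -0.060 to 0.16. The cause was not tested.

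The labels do not say whether arrays of the same replicate number belong together. Of 15 such pairs 4 had deviations correlated above 0.1 (highest 0.275), beside 8 of 30 pairs of other numbers (highest 0.193). Of the 11 arrays 6 correlated best with their own number. These counts do not settle whether the arrays were paired. With the number as a replicate block, limma called 0 genes for the interaction (1558 at an unadjusted p under 0.05) and between 73 and 712 in the other comparisons, and no member changed its call. Other probe sets of a member could not be tried, since each had 1, nor a 2-group fit of the interaction.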
